A study of Bos taurus with 38 samples.

Results

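Transcripts of 9 genes whose proteins set, read or remove chromatin marks or move nucleosomes were examined in cattle oocytes and in the cumulus cells that surround them. They were DNMT1 (ENSBTAG00000002736), SIRT6 (ENSBTAG00000019909), KAT7 (ENSBTAG00000018699), DPF2 (ENSBTAG00000003077), MEN1 (ENSBTAG00000002095), PHF1 (ENSBTAG00000001634), PHF10 (ENSBTAG00000003929), LRIF1 (ENSBTAG00000012659) and SMARCA1 (ENSBTAG00000002292). They are 9 of the 27607 gene identifiers in each of the 2 count tables, 1 for oocytes and 1 for cumulus cells. All 9 passed the filter on low values in both compartments, under which a gene had to exceed 2 CPM in 9 or more of the 19 libraries, and 10281 genes passed it in both. CPM is a gene's read count scaled to 1000000 assigned reads per library.

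The libraries came from 19 cumulus-oocyte complexes aspirated from antral follicles of Bos taurus abattoir ovaries. Each complex was incubated with brilliant cresyl blue (BCB), a dye that growing oocytes decolorise, and called BCB positive when its oocyte stayed blue (9 complexes) or BCB negative when it did not (10 complexes). The oocyte was then freed of its cumulus cells with trypsin and pipetting, and both were sequenced, so that each group held single oocytes or the cumulus cells of single complexes, all handled with TRIzol extraction, oligo-dT priming, template switching and preamplification of the cDNA. The age and breed of the cows and the ovary that each complex came from are not given in the sources used here, so p-values measure the spread between complexes.

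Chromatin regulators act on DNA or on the histones that package it. DNMT1 copies DNA methylation onto the new strand after replication, SIRT6 is a nuclear deacetylase of the sirtuin family, KAT7 (HBO1) acetylates histones, menin, the product of MEN1, is a scaffold of histone H3 methyltransferase complexes, and PHF1 is an accessory protein of the Polycomb repressive complex that methylates histone H3. DPF2 and PHF10 are alternative subunits of SWI/SNF remodelling complexes, DPF2 in the BAF form and PHF10 in the PBAF form, while SMARCA1 (SNF2L) is an ATPase of the ISWI family, and LRIF1 is a nuclear receptor interacting factor that localises with silent chromatin. A growing oocyte stores transcripts for such proteins before its own transcription stops, and cumulus cells are somatic granulosa cells that continue to transcribe.

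The genes were in part selected on measured values, their correlations between oocyte and cumulus cells, and those are given here as a description only. The study computed Pearson's r between each oocyte gene and each cumulus gene over complexes, after dividing counts by the TMM factor (trimmed mean of M values, an edgeR scaling factor) but not by the library total, and taking the inverse hyperbolic sine. On that scale, with an r of at least 0.85 counted over all complexes, SMARCA1 in oocytes had 18 cumulus partners, with a highest r of 0.918. DNMT1 in oocytes had 2 partners, with a highest r of 0.867 (SAT1), and PHF10 had 1, at 0.893. SIRT6 in cumulus cells passed with SH3BP4 (0.852) and LRIF1 in cumulus cells with GSTA1 (0.858), while MEN1 in cumulus cells stayed outside with GSTA1 (0.832).

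Within BCB positive complexes the count began at 0.99. SIRT6 in oocytes reached 0.992 with TIMP2 in cumulus cells, KAT7 in cumulus cells reached 0.994 with CIZ1 in oocytes, and PHF1 in cumulus cells reached 0.995 with RHBDF1. DPF2 and MEN1 in cumulus cells had the same oocyte partner, CDK10, at 0.995 and 0.993. SMARCA1 in cumulus cells passed there at 0.993, and within BCB negative complexes, where the count began at 0.98, it passed with ADAMTS16 at 0.981. When the same values were also scaled to the library total, all of these pairs were lost. Over all complexes LRIF1 in cumulus cells then passed with NUBPL at 0.865, and within BCB negative complexes DNMT1 in oocytes passed with DDX20 at 0.986 and KAT7 in cumulus cells with 1 oocyte gene at 0.983. LRIF1 was known from earlier work on these data for its oocyte difference between BCB classes, where it ranked 6 of 12753 genes by p.

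Oocyte libraries held 8886070 to 29810354 counts and cumulus libraries 1103200 to 10430148, with cumulus medians of 2252271 in BCB negative and 5853816 in BCB positive complexes. Of the cumulus libraries under 2000000 counts, called shallow here, 4 were BCB negative and 0 BCB positive. Complex numbers fall into 3 runs, 6 to 24 (1 BCB negative and 3 BCB positive), 65 to 74 (3 BCB negative, numbered up to 68, and 6 BCB positive, numbered from 69) and 86 to 91 (6 BCB negative). The labels do not say what a run is, and only 65 to 74 allows the classes to be compared inside a run with more than 1 complex on each side. The summed CPM of 11 cumulus markers was 7535 to 28815 in cumulus cells and 131 to 2786 in oocytes, and that of the oocyte markers ZP2, ZP3 and DAZL was 2767 to 5095 in oocytes and 0.108 to 66.5 in cumulus cells. VWF, the 1 gene matched of 7 markers of theca, immune, endothelial and red cells, was at 15.0 to 82.9 CPM in oocytes and at 0.462 to 16.3 CPM in cumulus cells.

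The first comparison set the oocyte against its cumulus cells. Of these genes 6 were higher in oocytes (DNMT1, SIRT6, KAT7, DPF2, MEN1 and PHF1), by 1.80-fold to 5.39-fold, PHF10 and SMARCA1 were lower in oocytes, by 13.0-fold and 73.2-fold, and LRIF1 did not pass. The test was edgeR's quasi-likelihood test over all 38 libraries with TMM factors, called at a false discovery rate (FDR) under 0.01. The background was high, since 46.5% of 14785 genes were called higher in oocytes and 42.3% lower, so that 8 called of 9 is near the share of all genes. Values are relative to the other transcripts of a library, and in the cumulus libraries, which pool the cells of a complex, fewer cells of a type and less RNA per cell cannot be told apart.

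**Figure D1:**
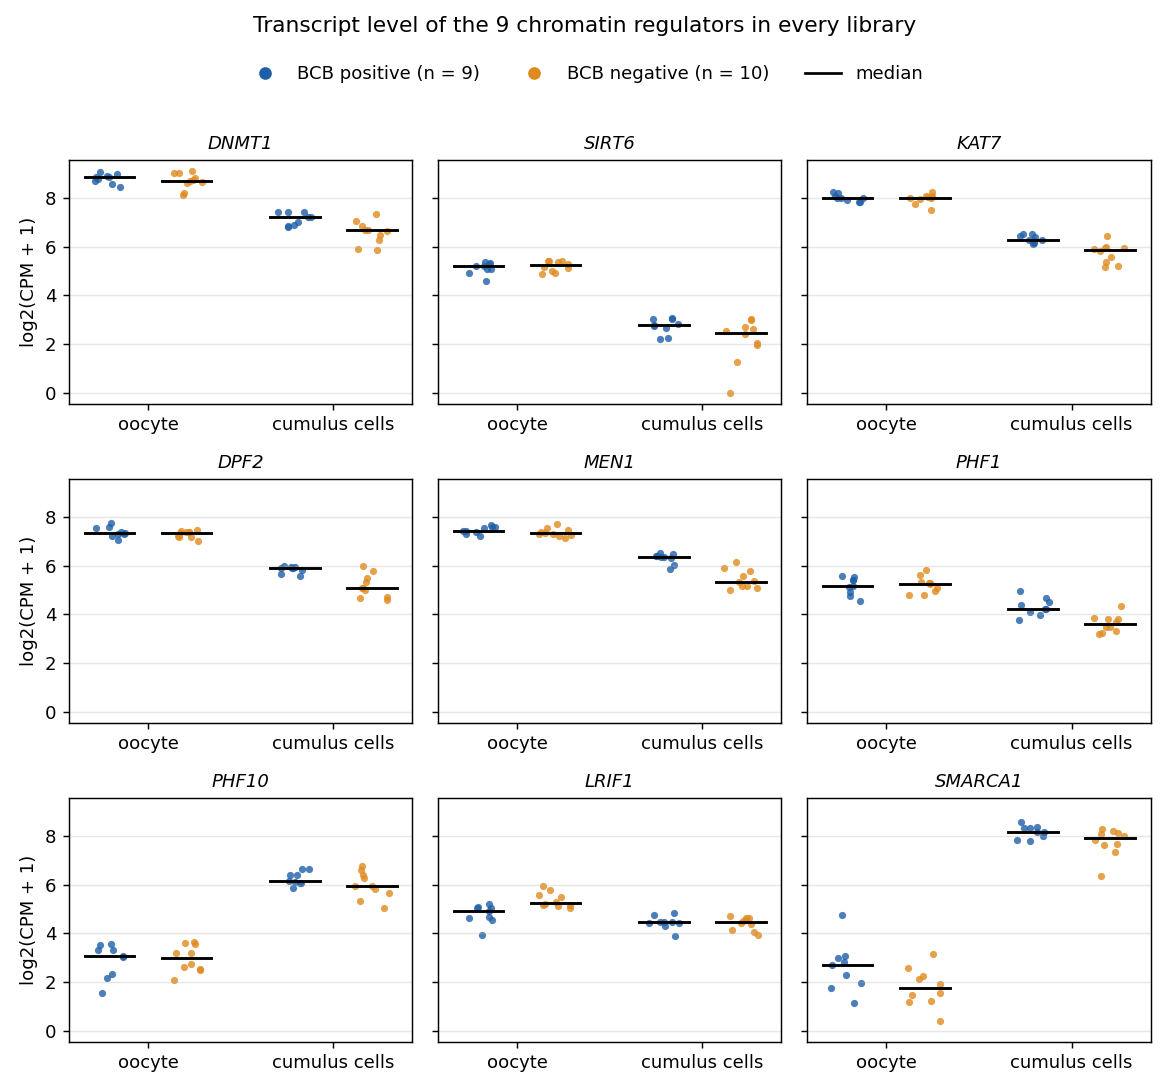
Transcript level of each gene in all 38 libraries, on a log2(CPM + 1) axis with CPM taken on library totals. Each point is 1 library, blue for BCB positive (n = 9) and orange for BCB negative (n = 10), and the black bar is the group median. DNMT1, SIRT6, KAT7, DPF2 and MEN1 lie higher in every oocyte library than in any cumulus library, and PHF10 and SMARCA1 lower.

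Among the enzymes, DNMT1 was at 274, 435 and 550 CPM (lowest, median and highest) in oocytes and at 56.4, 116 and 173 CPM in cumulus cells. Every oocyte lay above every cumulus library. The log2 fold change was 1.46 ± 0.0939 (SE, FDR 6.51e-18, edgeR), and the oocyte was the higher of the pair in 19 of 19 complexes, with a median ratio of 3.67. Ratios and percents within a complex, here and below, are on library totals, while the fold changes use TMM factors. The median log2 fold change of all genes was 0.557 with library totals alone and 0.151 with TMM factors.

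SIRT6 was at 23.0, 35.4 and 42.0 CPM in oocytes and at 0, 5.28 and 7.29 CPM in cumulus cells. The groups did not overlap, and the cumulus library at 0 was that of BCB negative complex 65, where a count of 0 allows up to 1.82 CPM (3 counts, counting error only). The log2 fold change was 2.43 ± 0.156 (SE, FDR 6.19e-18, edgeR), and the 18 complexes with a ratio had a median of 6.15.

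KAT7 was at 181, 256 and 307 CPM in oocytes and at 35.1, 68.6 and 91.3 CPM in cumulus cells, again without overlap. Its log2 fold change was 1.55 ± 0.0686 (SE, FDR 3.83e-23, edgeR), with the smallest SE of the 9 genes. The oocyte exceeded its own cumulus cells in 19 of 19 complexes, by 2.78-fold to 7.54-fold.

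Of the SWI/SNF subunits, DPF2 was at 129, 164 and 213 CPM in oocytes and at 22.8, 48.8 and 62.1 CPM in cumulus cells. All oocytes were above all cumulus libraries, and the log2 fold change was 1.41 ± 0.0852 (SE, FDR 9.41e-19, edgeR). PHF10 went the other way, with 1.91, 7.35 and 11.6 CPM in oocytes and 31.7, 68.6 and 109 CPM in cumulus cells.

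No PHF10 value in oocytes reached the lowest value in cumulus cells. Its log2 fold change was -3.70 ± 0.187 (SE, FDR 3.13e-21, edgeR), and an oocyte held a median of 9.98% of the PHF10 level of its own cumulus cells (range 2.91% to 20.2%). The other subunits particular to the PBAF form that could be matched, ARID2, PBRM1 and BRD7, were at log2 fold changes of 0.30, 0.14 and 1.35, of which ARID2 and BRD7 passed as higher in oocytes, a set picked after these values had been seen.

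MEN1 was at 141, 167 and 208 CPM in oocytes and at 30.9, 59.0 and 91.8 CPM in cumulus cells. The groups did not overlap, the log2 fold change was 1.11 ± 0.0770 (SE, FDR 7.76e-17, edgeR), and the oocyte was higher in 19 of 19 complexes. PHF1 was at 22.6, 36.6 and 55.7 CPM in oocytes and at 8.16, 13.5 and 29.7 CPM in cumulus cells.

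The PHF1 groups overlapped, yet the oocyte was above its own cumulus cells in 19 of 19 complexes. The log2 fold change of 0.85 ± 0.122 (SE, FDR 2.95e-08, edgeR) was the smallest of those called. By contrast LRIF1, at 14.4, 33.9 and 60.5 CPM in oocytes and at 14.0, 21.2 and 27.9 CPM in cumulus cells, had a log2 fold change of 0.26 ± 0.119 (SE, FDR 0.0352, edgeR).

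The LRIF1 groups overlapped widely, although the oocyte was above its own cumulus cells in 18 of 19 complexes on library totals (ratios of 0.555 to 4.22). Its call changed with the scaling, the test and the filter. LRIF1 passed with library totals alone (0.69), with DESeq2's size factors (0.37), in the DESeq2 Wald test (0.39) and without a filter (0.42), all in the direction of the oocyte. It did not pass with the complex as a block, at 0.25 (FDR 0.0938, edgeR), or with a CPM above 2 asked of every library of a compartment, at 0.099 (FDR 0.420, edgeR). The median log2 fold change of all genes was 0.15 with TMM factors and 0.56 with library totals alone, so that LRIF1 lay 0.11 above that median on the first scale and 0.14 above it on the second.

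SMARCA1 was at 0.303, 3.33 and 26.1 CPM in oocytes and at 81.6, 274 and 378 CPM in cumulus cells. Even the highest oocyte, that of BCB positive complex 72, stayed below the lowest cumulus library, and the log2 fold change was -6.19 ± 0.328 (SE, FDR 7.58e-20, edgeR). It was 46.3-fold lower in oocytes of BCB positive complexes and 116-fold lower in those of BCB negative complexes. Without complex 72, an alternative chosen after seeing the data, the first of these was 73.4-fold and the second 115-fold.

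In counts without overlap between the 19 oocytes and the 19 cumulus libraries, 5 genes stood above, against a background of 33.2% of all genes, and 2 stood below, against 13.9%. Taking the complex as a block gave the same 8 calls with FDR under 0.01. Complex 72 and the shallow cumulus libraries were left out in turn, alternatives chosen after seeing the data, and 8 of 9 genes were called each time, 6 higher and 2 lower.

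**Figure D2:**
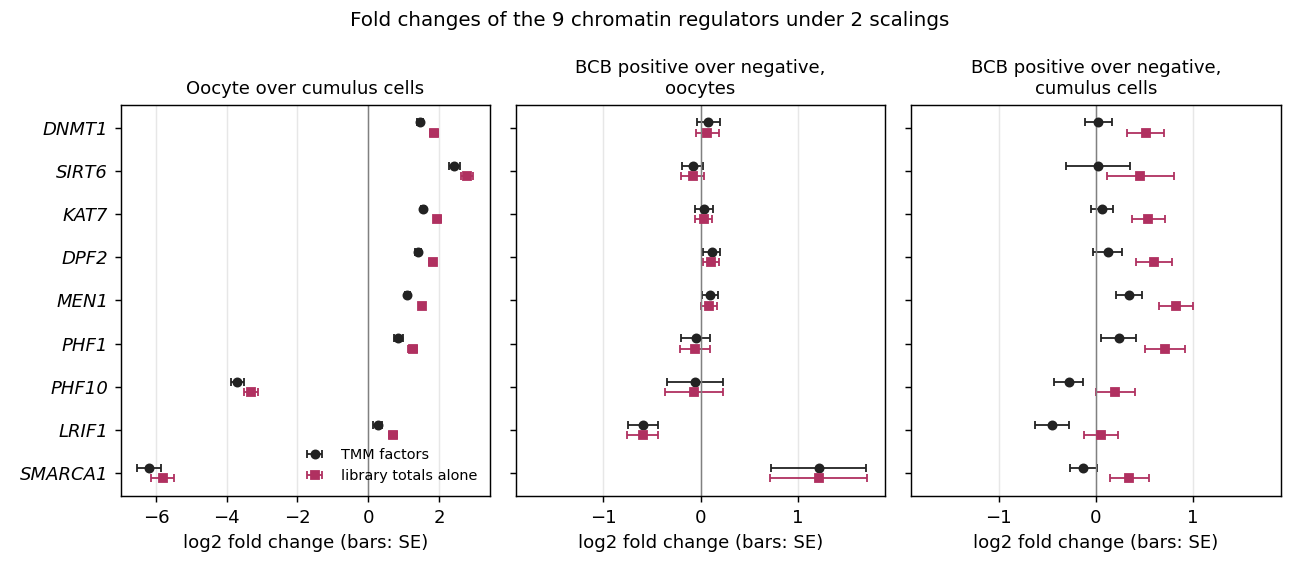
Log2 fold changes with SE bars for oocytes over cumulus cells (38 libraries) and for BCB positive over BCB negative in oocytes and in cumulus cells (19 libraries each), black with TMM factors and red with library totals alone. The 2 scalings lie close together in oocytes, while in cumulus cells library totals move all 9 genes to the right, MEN1 from 0.34 to 0.83.

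Partners of the 9 genes were taken from lists of the complexes and families they belong to, and 36 of 100 other genes could be matched to a symbol. Of these, 15 were higher in oocytes, 16 were lower and 5 were not called, where 46.5% of all genes were higher and 42.3% lower, with a median log2 fold change of 0.012 beside 0.15 over all genes. SIRT6 was the 1 sirtuin of 5 measured that was higher in oocytes, and SIRT5 (fell by 1.54 on the log2 scale), SIRT2 (fell by 1.38), SIRT7 (fell by 1.02) and SIRT1 (fell by 0.60), a family of deacetylases and deacylases of several cell compartments, were lower.

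Among the 5 DNA methylation genes, TET3, which oxidises methylated cytosine, was 20.8-fold higher in oocytes, while the methyl-binding proteins MBD2 and MBD3 were lower, by 5.15-fold and 1.36-fold. In the KAT7 complexes, the scaffolds BRPF3 and BRD1 were higher with KAT7, by 11.5-fold and 4.57-fold, ING4, which reads methylated histone H3, was 1.49-fold lower, and ING5 was not called. Of the 12 SWI/SNF genes 6 were higher, led by the subunit BICRA (7.52-fold) and DPF2, and 3 were lower, led by PHF10 and the subunit SMARCD3 (10.1-fold).

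The menin and KMT2 list had 5 of 9 genes higher, led by the core subunit ASH2L (5.32-fold) and the methyltransferase KMT2B (4.77-fold), and 4 lower, led by the demethylase KDM6A (29.4-fold) and the methyltransferase KMT2D (3.71-fold). Of the 5 genes of the PHF1 list, the accessory proteins EPOP (63.4-fold) and JARID2 (6.43-fold) were higher with PHF1, and a further accessory protein, AEBP2 (3.72-fold), and the methyltransferase EZH1 (2.84-fold) were lower. Of the 3 ISWI genes, CECR2 was 48.4-fold higher, and BPTF, like CECR2 a large partner subunit of ISWI ATPases, was lower with SMARCA1, by 4.19-fold. No gene other than LRIF1 of the LRIF1 list was matched.

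The second comparison asked whether the 9 genes differed with the BCB class of the oocyte. In oocytes none was called by edgeR's quasi-likelihood test, the background being 0% of 12753 genes at FDR under 0.01, 711 genes at an unadjusted p under 0.05 and 1 gene called by the DESeq2 Wald test. DNMT1, SIRT6, KAT7, DPF2, MEN1, PHF1 and PHF10 had log2 differences (BCB positive minus negative) from -0.08 to 0.11. For KAT7 the 95% interval of the ratio was 0.899 to 1.17, for DNMT1 0.892 to 1.25 and for DPF2 0.955 to 1.23, and for PHF10, measured at fewer counts, it was 0.632 to 1.46.

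LRIF1 in oocytes, whose difference was known when it was chosen, was at 14.4, 29.0 and 36.1 CPM in BCB positive and at 31.7, 37.2 and 60.5 CPM in BCB negative complexes. The classes overlapped between 31.7 and 36.1 CPM. The log2 difference was -0.59 ± 0.152 (SE), and within complexes 65 to 74 it was -0.43. The highest values came from the run 86 to 91, which is BCB negative throughout, at 34.6 to 60.5 CPM.

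SMARCA1 in oocytes was at 1.22, 5.43 and 26.1 CPM in BCB positive and at 0.303, 2.39 and 7.81 CPM in BCB negative complexes. The classes overlapped, and the log2 difference was 1.21 ± 0.488 (SE, FDR 0.867, edgeR). The summed cumulus markers in these oocytes were at 131, 224 and 2786 CPM in BCB positive and at 143, 185 and 799 CPM in BCB negative complexes. The SMARCA1 difference was 2.96 within complexes 65 to 74 (FDR 0.0716), 0.61 without complex 72 and 0.51 with the cumulus marker level as a covariate, the last 2 being alternatives chosen after seeing the data. In that run SMARCA1 was at 0.303 to 1.79 CPM in the 3 BCB negative oocytes and at 3.83 to 26.1 CPM in the 6 BCB positive ones. How many of all genes separate in this way in the run was not counted. The marker sums there were at 149.9 to 183.9 CPM and at 184.3 to 2786 CPM, with almost no gap between the classes.

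Inside the run 65 to 74 several genes stood further apart than over all complexes. PHF10 in oocytes was at 3.20 to 5.76 CPM in the 3 BCB negative and at 7.20 to 10.9 CPM in the 6 BCB positive complexes. The share of all genes whose classes separate in this way inside the run was not counted. The PHF10 log2 difference there was 0.94 (FDR 0.0973, edgeR) beside -0.06 over all complexes. The marker sums of these oocytes were also higher in the BCB positive complexes, though the classes all but touched, and their part in the PHF10 and SMARCA1 differences of this run was not tested. The BCB positive oocytes of the run 6 to 24 held less PHF10 than those of 65 to 74, the whole run being at 1.91 to 4.77 CPM, and those of 86 to 91, all BCB negative, held 5.07 to 11.6 CPM.

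DNMT1 in oocytes of the run 65 to 74 was at 274, 295 and 395 CPM in the 3 BCB negative complexes and at 378 to 500 CPM in the 6 BCB positive ones. Those classes overlapped between 378 and 395 CPM, and the log2 difference was 0.45 (FDR 0.100, edgeR) beside 0.08 over all complexes. PHF1 had 0.41 there (FDR 0.192), and SIRT6, KAT7, DPF2 and MEN1 had -0.09 to 0.17. In this run 4 of the 9 genes were at an unadjusted p under 0.05, among 20.8% of all genes, and 0 genes were called at FDR under 0.01.

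In cumulus cells none of the 9 genes was called either, where 0.56% of 12313 genes were (5 higher in BCB positive complexes and 64 lower). MEN1 was at 57.2, 82.1 and 91.8 CPM in BCB positive and at 30.9, 39.3 and 70.3 CPM in BCB negative complexes on library totals. On TMM-scaled CPM the same libraries were at 51.3, 65.6 and 75.0 and at 35.9, 51.1 and 74.2. The classes overlapped on both scales, and the log2 difference was 0.34 ± 0.132 (SE, FDR 0.160, edgeR), and 0.34 within complexes 65 to 74.

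LRIF1 in cumulus cells was at 11.1, 16.9 and 25.6 TMM-scaled CPM in BCB positive and at 14.5, 25.6 and 37.1 in BCB negative complexes. The classes overlapped, the log2 difference was -0.45 ± 0.172 (SE, FDR 0.156, edgeR), and it was -0.85 within complexes 65 to 74 (FDR 0.118). With the log10 library total as a covariate it was -0.09, and without the shallow cumulus libraries, an alternative chosen after seeing the data, -0.34. PHF10 had -0.28 (FDR 0.333), PHF1 0.24 (FDR 0.501) and SMARCA1 -0.13 (FDR 0.670), and DNMT1, SIRT6, KAT7 and DPF2 had 0.02 to 0.12.

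The cumulus values changed with the scaling. With library totals alone all 9 genes had positive differences, MEN1 was called at 0.83 (FDR 0.00243), and the median of the 9 was 0.51, while the median of all genes was also moved, from -0.01 to 0.46, with 1629 genes called higher and 103 lower. Set against that median, MEN1 was at 0.37 and LRIF1 at -0.41, beside 0.34 and -0.45 with TMM factors.

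Whether the BCB difference was the same in both compartments was tested as an interaction over 10281 genes, of which 0.525% were called (52 with a higher and 2 with a lower positive minus negative difference in oocytes than in cumulus cells). None of the 9 genes was among them. SMARCA1 came nearest, with a difference of 1.38 ± 0.514 (SE, FDR 0.226, edgeR), and the other 8 had -0.27 to 0.24. With the complex as a block, 2 genes were called (0.0195%), none of the 9 among them, and SMARCA1 had 1.15 (FDR 0.398, edgeR). With library totals alone MEN1 was called at -0.73 (FDR 0.00727), with 46 genes called at a difference above 0 and 532 at one below 0.

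SMARCA1 and PHF10, both far lower in oocytes, were set against the cumulus markers measured in the oocyte libraries. The summed cumulus markers in an oocyte were 0.597% to 9.67% of their level in its own cumulus cells (median 1.87%). SMARCA1 was at 0.131% to 9.04% (median 1.47%), a median of 0.700 times the marker percent with a range of 0.0879 to 1.56, and was below it in 14 complexes. PHF10 lay above the marker percent in each of the 19 complexes.

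The 11 markers differed widely among themselves, and SERPINE2 and VCAN, a protease inhibitor and a matrix proteoglycan, made up 34.7% to 84.3% of the marker sum in oocytes (median shares of 45.4% for SERPINE2 and 23.9% for VCAN). The median percent in oocytes was 0.152% for INHA, 0.228% for FSHR and 0.313% for INHBA, and it was 3.19% for SERPINE2, 4.36% for GJA1 and 8.47% for NR5A1. The SMARCA1 median of 1.47% was above that of 5 markers and below that of 6, so that its place below the summed markers depends on which markers are summed.

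**Figure D3:**
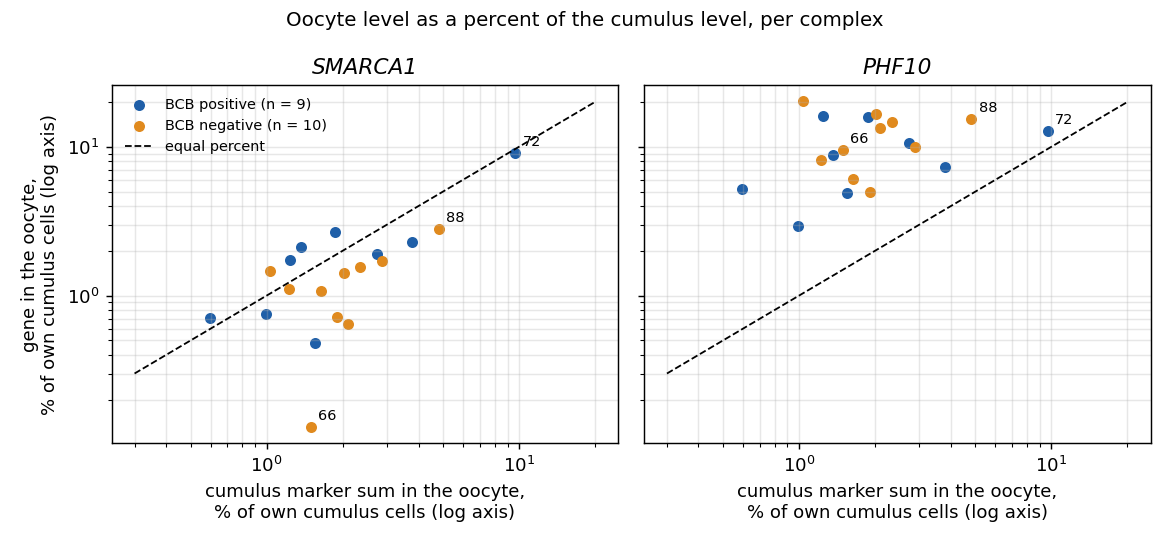
Level in the oocyte as a percent of the level in its own cumulus cells, for SMARCA1 and PHF10, against the same percent for the summed cumulus markers, on log axes. Each point is 1 complex, blue for BCB positive (n = 9) and orange for BCB negative (n = 10), and the dashed line marks equal percents. SMARCA1 lies below the line in 14 of 19 complexes and reaches 9.04% in complex 72, while PHF10 lies above it in all 19.

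Across oocytes, the slope of log2 SMARCA1 on the log2 marker sum was 0.84, a 1.78-fold rise for each log2 unit. SMARCA1 was chosen by its oocyte values, through their correlation with 18 cumulus genes, so that the slope is a description with no test, and nothing is read from its place among the 1.95% of 12753 genes called, which it lost under both alternatives that follow. Without complex 72, an alternative chosen after seeing the data, the slope was 0.87, and without the 2 oocytes of highest marker level, those of complexes 72 and 88, it was 0.98. PHF10 had a slope of 0.25, and the other 7 genes had -0.12 to 0.04.

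In the opposite direction, the summed oocyte markers in cumulus cells were 0.00359% to 1.45% of their level in the oocyte (median 0.0327%). The highest values were those of BCB negative complexes 66 and 68, and the part of that RNA in the cumulus levels of the 6 genes higher in oocytes was not tested.

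Spread between libraries was taken as the coefficient of variation (CV) of TMM-scaled CPM. In oocytes MEN1 (10.8%), KAT7 (12.8%), DPF2 (12.8%), SIRT6 (13.9%) and DNMT1 (17.5%) varied less than the median gene (22.9%). PHF1 was near it, at 22.5%, and LRIF1 (30.2%), PHF10 (41.4%) and SMARCA1 (114%) were above it. Without complex 72, an alternative chosen after seeing the data, SMARCA1 was at 62.7%.

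In cumulus cells KAT7 varied least, with a CV of 12.4% that lay at percentile 0.284 of all genes, where counting error alone gave 6.99%. DNMT1 (18.5%), SMARCA1 (19.7%), DPF2 (20.4%), MEN1 (20.5%), PHF10 (25.7%), PHF1 (25.8%) and LRIF1 (29.5%) were also under the median gene (34.1%). SIRT6 was above it, at 44.6%, with 25.7% from counting alone. SMARCA1, the most variable of the 9 in oocytes, was thus among the less variable in cumulus cells. Its median level was 3.33 CPM in oocytes and 274 CPM in cumulus cells, with CVs of 11.7% and 3.52% from counting alone. Genes were not matched by level in either compartment, so the place of a gene against the median gene may depend on its level.

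**Figure D4:**
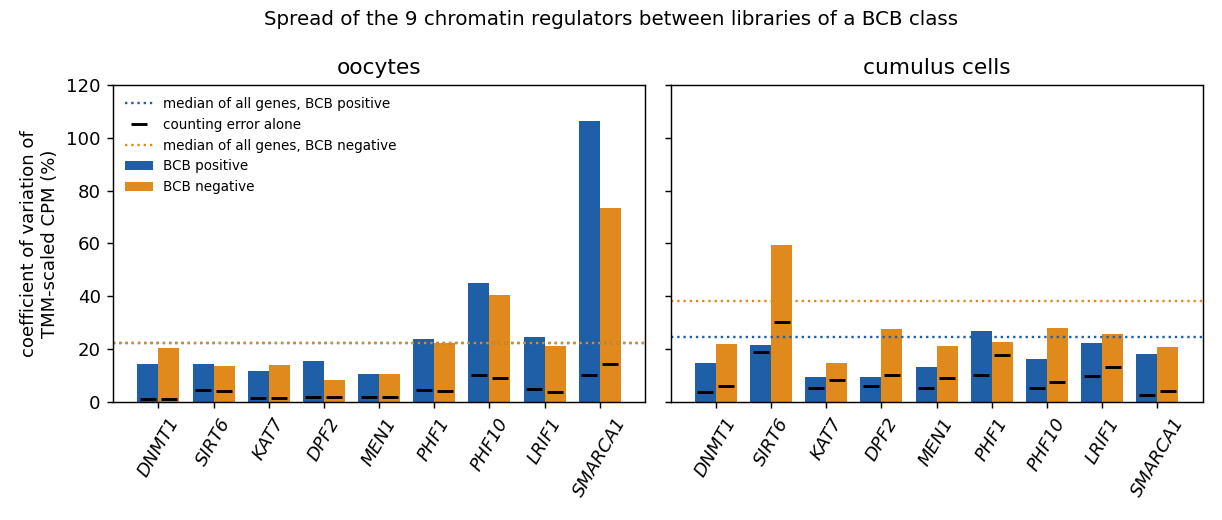
Coefficient of variation of TMM-scaled CPM for each gene in oocytes and in cumulus cells, blue for BCB positive (n = 9) and orange for BCB negative (n = 10), with the value that counting error alone gives as a black dash and the median of all genes as dotted lines. SMARCA1 and PHF10 stand highest in oocytes, SMARCA1 in BCB positive oocytes at 106% with complex 72 and 49.7% without it, and DPF2 in cumulus cells has 9.47% in BCB positive and 27.7% in BCB negative complexes.

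No gene's spread was called as different between BCB classes, with a background of 0% in oocytes (394 genes of 12753 at an unadjusted p under 0.05, limma) and 0% in cumulus cells (1459 of 12313). On simulated data this test found only a small share of genes with a several-fold larger spread, so the lack of calls does not show equal spread. The nearest of the 9 was DPF2 in cumulus cells, with a CV of 9.47% in BCB positive and 27.7% in BCB negative complexes. The mean absolute deviation of its log2(CPM + 1) from the class median was lower by 0.25 in BCB positive complexes (FDR 0.396, limma). The median gene had a CV of 24.5% in BCB positive and 38.3% in BCB negative cumulus libraries, the class with the lower totals.

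The last comparison related each gene in the oocyte to the same gene in the cumulus cells of the same complex. Pearson's r of log2(CPM + 1) passed for 0% of 10281 genes at a permutation FDR under 0.01 (887 at an unadjusted p under 0.05), with a median r of 0.0764. Since correlations between the compartments had a part in choosing the genes, the values of the 9 are a description with no test. KAT7 had the highest r of the 9, 0.67, with a Spearman's rho of 0.62.

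The KAT7 relation was 0.61 within BCB positive and 0.70 within BCB negative complexes, 0.35 within complexes 65 to 74 and 0.68 within 86 to 91. Without the 2 complexes farthest from the median oocyte level r was 0.52, and on library totals it was 0.40. The other 8 genes had r from -0.22 (SIRT6) to 0.32 (DNMT1). SIRT6 had 0.74 within BCB positive and -0.50 within BCB negative complexes, a contrast that was not tested.

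**Figure D5:**
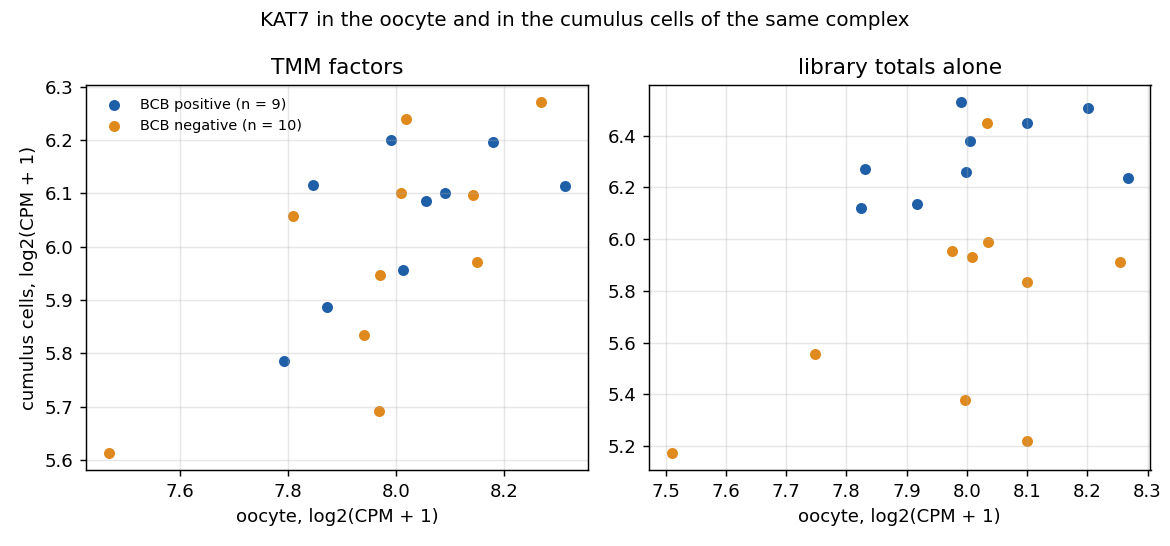
KAT7 in the oocyte (horizontal) and in the cumulus cells (vertical) of the same complex, as log2(CPM + 1), with TMM factors on the left and library totals alone on the right. Each point is 1 complex, blue for BCB positive (n = 9) and orange for BCB negative (n = 10). The points rise together on the left, with r = 0.67, and less so on the right, with r = 0.40, and 1 BCB negative complex is lowest in both compartments.

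Correlations of the 9 genes with other genes and among themselves were described without a test. After subtraction of the compartment mean, the gene with a symbol nearest to each over 38 libraries, among 4158, was PLCG1 for DNMT1 (r = 0.709), WDR24 for SIRT6 (0.802), POLDIP3 for KAT7 (0.567), AP2M1 for DPF2 (0.766) and RNF26 for MEN1 (0.804). It was RAVER1 for PHF1 (0.685), TASOR2 for PHF10 (0.812), FGF9 for LRIF1 (0.586) and FST for SMARCA1 (0.838). These are descriptions over libraries that share complexes and depth. Between the 36 pairs of the 9 genes, r was -0.58 to 0.51 in oocytes and -0.68 to 0.60 in cumulus cells, with medians of 0.013 and -0.028. It was positive for 19 of the pairs in oocytes and for 17 in cumulus cells.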

How the data were processed

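RNA was sequenced from 19 single oocytes and from the cumulus cells of each. The authors trimmed paired 150-nucleotide reads, aligned them to ARS-UCD1.2 with HISAT2 2.1.0, dropped duplicates and counted reads on Ensembl gene models using featureCounts 1.6.0. The deposited values are raw counts per gene, in 1 table per compartment with 27607 identifiers. Whether counting used strand is not stated. Groups and complexes were taken from the sample labels, and the complex number pairs an oocyte with its cumulus cells. Deviations from the group means correlated within a complex at a median of 0.0761 (5 of 19 above 0.1), with a highest r of 0.215. Between an oocyte and the cumulus cells of other complexes the median was -0.000378 and the highest r 0.245. Only 6 of 19 oocytes had their highest r with their own cumulus cells.

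Symbols came from the study's supplementary tables, which name 4934 identifiers. Sequences and coordinates were not used here. The filter kept genes whose CPM exceeded 2 in 9 or more of the 19 libraries (12753 in oocytes, 12313 in cumulus cells). Counts were tested with edgeR 4.0.16 in R 4.3.3 (TMM, robust quasi-likelihood, FDR threshold 0.01), spread with limma 3.58.1 on absolute deviations of log2(CPM + 1) from the class median, and relations across complexes with 100000 permutations, two-sided. Python 3.11.15, numpy 2.4.6, pandas 2.3.3, scipy 1.17.1 and matplotlib 3.10.9 were used. FDR is the Benjamini-Hochberg adjusted p over all genes tested. The tests between compartments (as 2 groups), between BCB classes, of the marker slope and of spread were tried on simulated data. The spread test found only a small share of the genes given a several-fold larger spread there. The interaction, the block by complex and the permutation test were not tried in this way.

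Alternatives were a block by complex, library totals, DESeq2 1.42.0 (size factors, Wald test), other filters, an FDR of 0.05, a pseudocount of 0.5, covariates and left-out libraries. The 9 genes and the lists were chosen with earlier results of these data known. Named were these 9, from each list the 2 largest called changes in each direction between compartments, and any gene called between BCB classes. For each of the 9, the gene of highest correlation among those with a symbol was named, as were partners in the description of co-expression. The remaining sirtuins, ING5 and the PBAF subunits were named after their values were seen. Library totals limit precision most in the cumulus libraries, and intervals cover the spread between complexes.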

Additional observations from a re-analysis of the deposited data

Results flagged for a closer look

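Each gene's CPM was examined in each of the 4 groups of libraries for a highest or lowest library far from the rest by Dixon's criterion, which chance alone meets in about 1 in 20 groups. Of the 36 groups, 2 met it. SMARCA1 in the oocyte of BCB positive complex 72 was at 26.1 CPM, where the next oocyte of its class was at 7.31 CPM. The same oocyte had the highest cumulus marker sum, 2786 CPM, and 9.67% of the marker level of its own cumulus cells. PHF1 in the cumulus cells of BCB negative complex 90 was at 19.4 CPM, where the next library of its class was at 13.5 CPM. These values are on library totals. On TMM-scaled CPM, where the criterion was not applied, complex 90 was at 19.7 and complex 91 at 17.7.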

How the results depend on the processing

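Of the values for single genes under an alternative, 353 kept their direction and side of the threshold (for a CV, stayed within 1.5 times), 2 moved, the SMARCA1 CVs given above, 6 passed it newly, 2 no longer passed (the SMARCA1 marker slope without complex 72 and without the 2 highest oocytes) and 36 changed sign, none of the last having passed. All 8 calls between compartments held under every alternative, the replicate block by complex included. Over all genes, the counts called between BCB classes were 1 in oocytes with the DESeq2 Wald test and, in cumulus cells, 1732 with library totals, 365 with the Wald test, 164 without a filter, 115 with the run as a covariate, 2 with the log10 total as a covariate, 2 without the shallow libraries and 360 at FDR 0.05. The interaction gave 2 calls with the replicate block, which pairs the libraries of a complex, 578 with totals and 123 at FDR 0.05, and the marker slope gave 49 without the 2 highest oocytes and 77 without complex 72. Differences between BCB classes that changed sign in oocytes were 0.091 for SIRT6, -0.10 for KAT7, 0.18 for PHF1 and 0.46 for PHF10 with the run as a covariate, 0.091, -0.090, 0.41 and 0.94 for the same genes within 65 to 74, and 0.013 for PHF1 and 0.088 for PHF10 with the log10 total. In cumulus cells they were -0.10 for DNMT1 and -0.058 for KAT7 with the run, -0.036 for KAT7, 0.066 for PHF10 and 0.067 for SMARCA1 within 65 to 74, 0.20 for PHF10, 0.055 for LRIF1 and 0.34 for SMARCA1 with totals, and for SIRT6 -0.00098 with DESeq2 size factors, -0.0049 with the Wald test, -0.20 with the log10 total and -0.016 without the shallow libraries. In the interaction they were -0.44 for DNMT1, -0.50 for KAT7, -0.49 for DPF2 and -0.27 for PHF10 with totals and -0.026 for DPF2 with the replicate block. The differences in spread were -0.0074 and -0.0019 for MEN1 in oocytes, with a CPM above 2 in all libraries and with totals, and -0.18 for SMARCA1 in cumulus cells with totals. The MEN1 slope was 0.036 without the 2 highest oocytes and 0.0059 without complex 72. The r across complexes was -0.31 with totals and -0.38 on residuals for LRIF1, and 0.41 and 0.067 for SMARCA1. The cause of these shifts was not tested. Depth limits SIRT6 in cumulus cells most, where counting error alone gives a CV of 25.7%.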
